A study of Mus musculus with 6 samples.

Results

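High-score spots were chosen by the measured UMIs of 5 genes, as the 10% of spots in each section of mouse brain that scored highest for Baiap3, Resp18, Magel2, Peg10 and Zcchc12, which are given as markers of the hypothalamus. The score of a spot was the mean, over the 5 genes, of its UMI count relative to the total of the spot (CPM) divided by the mean CPM of that gene in the section, so an average spot scores 1. Across 6 sections, 2034 of the 20336 spots that held at least 500 unique molecular identifiers (UMIs) were chosen. P21 contributed 360 and 331 high-score spots, adult brains 292 and 326, and aged brains 368 and 357. All values below rest on UMIs summed over these spots within a section, and the 5 score genes were left out of every test because they chose the spots. A spot is a printed patch of capture oligonucleotides that lies under several cells, so a value of a spot is not that of a cell.

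The study profiled male C57BL/6J mice, with no genetic change or treatment, in formalin-fixed and paraffin-embedded sections cut coronally through the brain, by Visium spatial transcriptomics with gene probes. Postnatal day 21 (P21) was represented by 2 sections, the adult age of 12 to 15 weeks by 2 sections and the aged group of 28 months by 2 sections. P21 and adult sections were mounted directly on Visium v1 slides, while aged sections were transferred to Visium v2 slides with the CytAssist instrument. The paper also describes an enhanced design of the probes for the aged libraries, and the Space Ranger version changed with that group. Age therefore cannot be told apart from slide, transfer, probe design and Space Ranger version in aged vs. adult. This holds for every result of that comparison. The high-score spots of a section gave between 4260002 and 7139499 UMIs, which was 6.14% to 10.7% of the UMIs of the section, and a high-score spot had a median of 12842 to 18674 UMIs.

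The hypothalamus lies at the base of the forebrain around the third ventricle and controls feeding, drinking, body temperature, sleep, stress responses, growth and reproduction. Its neurons are sorted into small nuclei that are told apart by the peptides they make: Agrp, Npy, Pomc and Ghrh in the arcuate nucleus, Hcrt and Pmch in the lateral hypothalamus, and Oxt and Avp in the magnocellular neurons that project to the posterior pituitary. Peptide precursors are cut and packed in dense core vesicles, and several imprinted genes, of which only the copy from the mother or only the copy from the father is active, are known for high activity in this tissue.

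The score genes are described only, since they chose the spots. Baiap3, a gene of the Munc13 family on GRCm38 chr17:25242659-25256364, was at 654, 677, 309, 441, 619 and 563 CPM in P21, adult and aged high-score spots, in that order of sections. Resp18, an endoplasmic reticulum protein of peptide-secreting cells, was at 1155, 1032, 520.2, 724, 1197 and 1056 CPM. Magel2 and Peg10, both active from the copy of the father, were at 118, 124, 58.5, 64.3, 68.7 and 51.7 CPM and at 361, 387, 113, 178, 479 and 278 CPM, respectively. Zcchc12, a zinc finger coactivator gene on the X chromosome, was at 743, 732, 431, 613, 704 and 747 CPM. Adult section 1 held the lowest level of all 5 genes but Magel2, which was lowest in aged section 2. The lowest score inside and the highest score outside the choice were 2.50 and 2.49 in adult section 1, 3.34 and 3.33 in aged section 1, and between these in the other 4 sections.

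On the slide the high-score spots formed patches, and their layout differed between sections. In the P21 sections 80.0% and 77.9% of them lay in 1 connected patch of 288 and 258 spots. The largest patch held 31.5% and 47.9% of the high-score spots of the adult sections, and 61.4% and 35.3% of those of the aged sections. Between 53.2% and 74.5% of the spots adjacent to a high-score spot were high-score spots themselves, compared with 2.92% to 5.17% of those adjacent to another spot. Adult section 1 was the most scattered, with 52 high-score spots that touched no other.

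**Figure D1:**
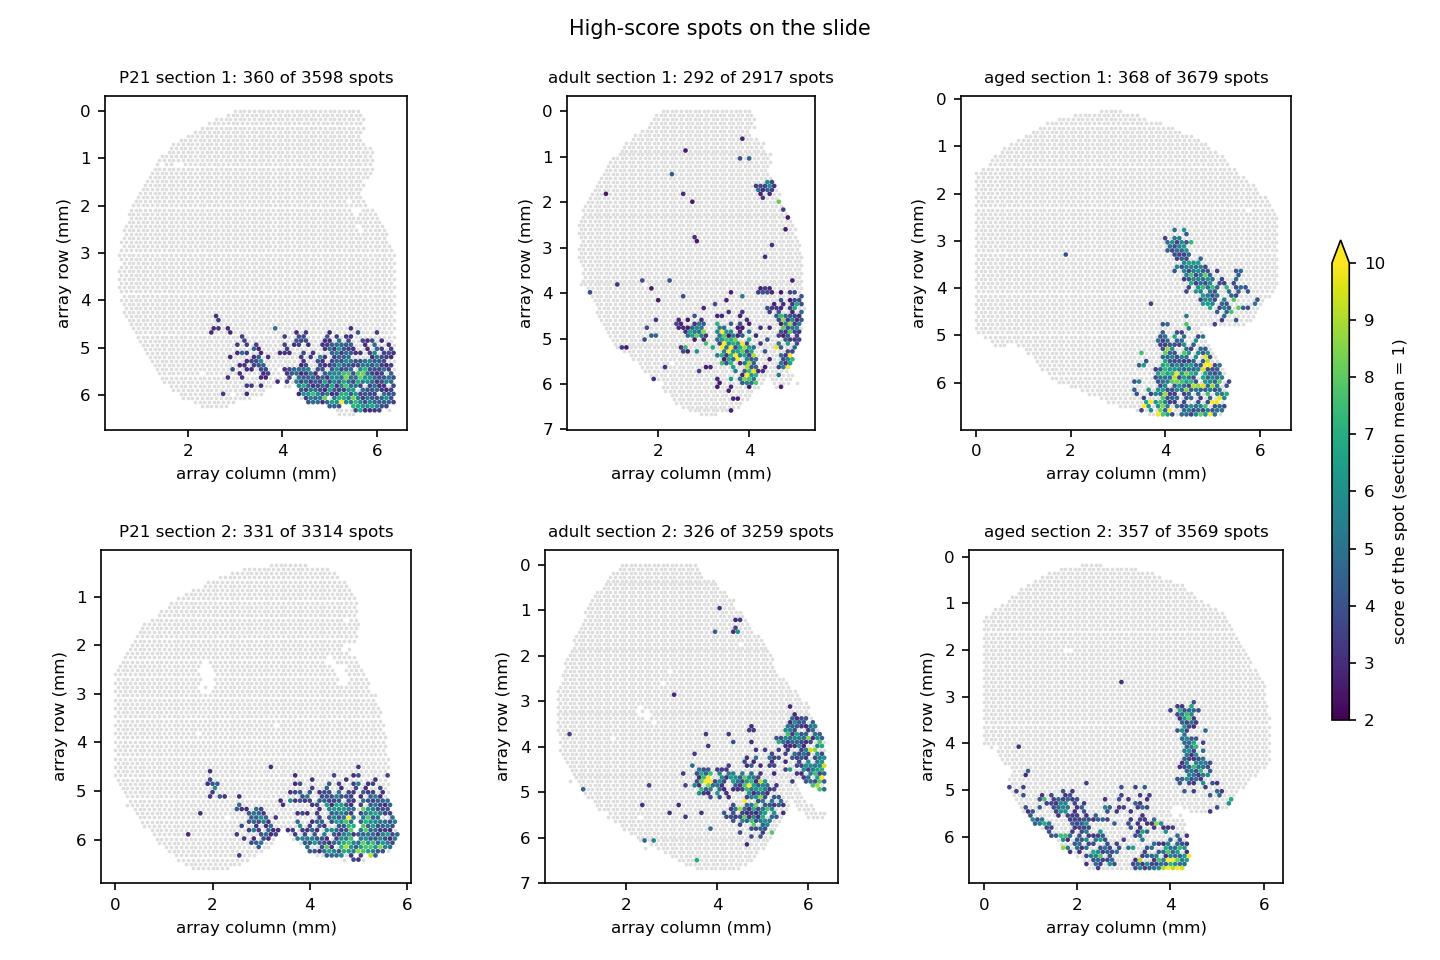
Position of the high-score spots on the slide (array column and row in mm) in each of the 6 sections, with other spots in grey and the colour of a high-score spot giving its score, capped at 10. The spots formed 1 main patch at the lower right of the P21 sections and several separate patches in the adult and aged sections.

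Sections of the same age differed widely in some peptide genes. Hcrt, the orexin precursor on chr11:100761069-100762931, was at 373 and 437 CPM in P21, 0.471 and 1084 CPM in adult and 2499.8 and 0.865 CPM in aged sections. Pmch, the precursor of melanin-concentrating hormone, was at 2721 and 1712 CPM (P21), 23.3 and 1837 CPM (adult) and 4689 and 10.4 CPM (aged), and Avp, the vasopressin precursor, at 3.63 and 7.01 CPM (P21), 12.0 and 712 CPM (adult) and 2409 and 6.63 CPM (aged). Adult section 1 and aged section 2 were therefore near 0 for Hcrt, with 2 and 6 UMIs, while adult section 2 held 4623 and aged section 1 held 12364. Oxt, the oxytocin precursor, followed the same split, at 1.18 and 136 CPM in adult and 660.1 and 1.30 CPM in aged sections. A difference in the plane of the section and a difference in age cannot be told apart for genes of a single nucleus. Adult section 1 and aged section 2 are thus named below with many, though not all, of the counts and calls that rest on them.

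Patches within a section also differed, described here with genes that were picked after their values were seen. In adult section 2 a patch of 110 spots held Hcrt at 2661 CPM, Pmch at 4115 CPM and Avp at 1608 CPM, while a patch of 156 spots held 30.2 CPM of Hcrt, 1462 CPM of Sst and 24.8 CPM of Lhx6. Nkx2-1 was at 24.9 CPM in the patch with more Hcrt. Aged section 1 likewise had a patch of 226 spots with Hcrt at 4290.1 CPM and Nkx2-1 at 34.3 CPM, and a patch of 103 spots with 1.73 CPM of Hcrt, 90.9 CPM of Lhx6 and 1344 CPM of Sst. The patch with less Hcrt in each of these sections also had less Nkx2-1, at 3.24 and 2.30 CPM. In adult section 1 the largest patch held 53.8 CPM of Lhx6 and 17.7 CPM of Cyp19a1, the aromatase gene, and the next held 43.5 CPM of Barhl1 and 535 CPM of Calb2. Aged section 2 likewise had Barhl1 at 19.8 CPM and Calb2 at 1342 CPM in its largest patch, and Lhx6 at 99.6 CPM and Cyp19a1 at 30.2 CPM in the next. Barhl1 and Foxb1 are transcription factors known from the posterior hypothalamus, and Foxb1 was at 57.9 CPM in the third patch of aged section 2. The main P21 patches held Pmch at 2609 and 1910.4 CPM and Nkx2-1 at 48.4 and 47.0 CPM. Among the 3 largest patches of each section, those with Nkx2-1 at 20 CPM or more, a level chosen after the values were seen, held 82.8% and 77.9% of the high-score spots in P21, 0% and 35.9% in adult and 61.4% and 18.8% in aged sections. Among the patches described, the label hypothalamus was borne out by Nkx2-1 in these only. Smaller patches were not described, and the spots as a whole are called high-score spots. Other markers of the hypothalamus were not absent elsewhere. Otp was at 54.6 CPM in the largest patch of adult section 1 and Hcrt at 0 CPM.

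Within each section the high-score spots stood apart from the other spots in transcription factors and receptors of the hypothalamus, which is described without a test because the same UMIs chose the spots. Otp, a homeodomain factor of neuroendocrine neurons on chr13:94875602-94885130, was at 79.4, 91.6, 21.1, 29.1, 42.5 and 22.1 CPM in the 6 sections, in the order P21, adult and aged, and at 5.03, 6.57, 0.933, 2.67, 1.34 and 1.09 CPM in the other spots. Irs4, an insulin receptor substrate, was at 171, 176, 30.3, 43.7, 57.0 and 46.4 CPM compared with 10.1, 11.3, 1.84, 3.20, 2.26 and 2.35 CPM. Hap1, the huntingtin-associated protein, was at 1411, 1385, 799, 1069, 1417 and 1162 CPM and 245, 267, 165, 212, 211 and 209 CPM, respectively. On the log2 scale the mean ratio over sections was 3.77 for Irs4, 3.60 for Otp, 3.56 for Arhgap36, 3.46 for the GABA receptor subunit Gabrq, 3.42 for Dlk1, 3.28 for the calcitonin receptor Calcr and 3.16 for galanin, Gal. None of the 6 sections broke the direction for these 7 genes.

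**Figure D2:**
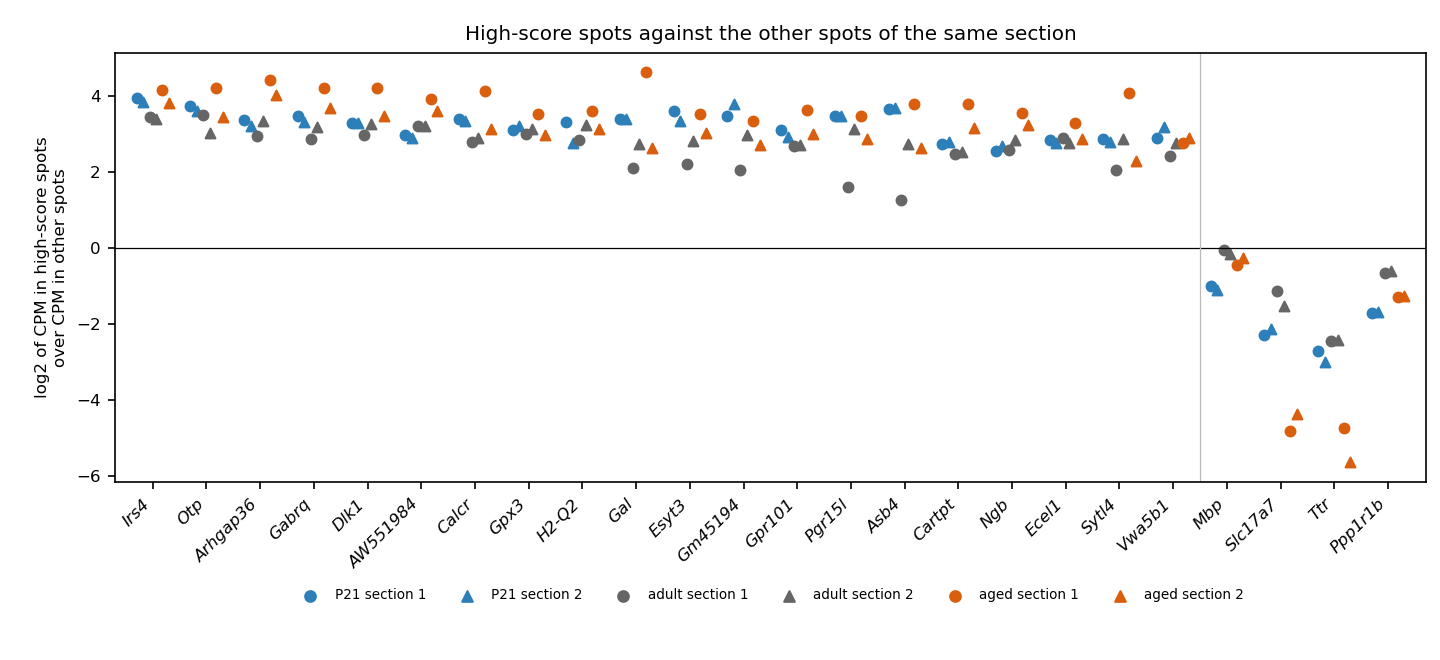
Log2 ratio of CPM in the high-score spots over CPM in the other spots of the same section, with 1 point per section, for the 20 genes with the largest mean ratio outside the score genes and for Mbp, Slc17a7, Ttr and Ppp1r1b. All 20 genes lie above 0 in all 6 sections, and Slc17a7 and Ttr lie lowest in the aged sections.

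Of 13698 genes compared in this way, 31.1% were higher and 17.7% lower in the high-score spots of all 6 sections, with a median log2 ratio of 0.072. Against that background, 16 of 18 further hypothalamic markers were higher in all 6 sections (median 2.34), as were 16 of 30 hypothalamic transcription factors (1.06), 15 of 30 peptide precursors (1.5004), 7 of 8 genes of GABAergic neurons (1.02) and 37 of 56 imprinted genes besides the score genes Magel2 and Peg10 (0.41), of which none was lower. Receptors for peptide and metabolic hormones were higher in 27 of 50 cases. Lower in all 6 sections were 10 of 11 genes of cortex and amygdala (-1.60), 9 of 12 of thalamus (-1.28), 4 of 5 of glutamatergic neurons, 12 of 18 immediate early genes (-0.88) and 10 of 17 of myelin (-0.48). The high-score spots were not free of cortical transcripts: Slc17a7, the vesicular glutamate transporter of cortical neurons, was at 414, 436, 897, 751, 63.9 and 80.6 CPM in them and at 2040.1, 1916, 1974, 2181, 1833 and 1683 CPM in other spots.

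A peptide precursor could be concentrated in few spots. In P21 section 1 the top 5% of the high-score spots, 18 spots, held 66.8% of the Hcrt UMIs, 77.3% of the Agrp UMIs and 62.1% of the Npy UMIs. For Otp the share was 33.5%. A spot of aged section 1 alone held 1910 Avp UMIs of 11915 in all high-score spots of that section, and 37.0% of the high-score spots had an Avp UMI there.

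P21 and aged high-score spots were each compared with adult high-score spots to ask which genes differed between the spots chosen at each age, which held unequal shares of Nkx2-1 patches. Age and this make-up of the high-score spots cannot be told apart in the sums. Of 13220 genes tested, 570 were higher (4.31%) and 554 lower (4.19%) in P21, 1124 in either direction (8.5%), while 994 were higher (7.52%) and 746 lower (5.64%) in aged sections, 1740 in either direction (13.2%). These shares are the background for every list count below. A call required a fold change over 1.5 together with an adjusted p below 0.05 in the quasi-likelihood test of edgeR with Benjamini-Hochberg adjustment. CPM values of single genes from here on, and those of Hcrt, Pmch, Avp and Oxt per section above, are scaled with the TMM factors of the edgeR fit. Values of patches and sums over a list of genes are CPM without that scaling. Both comparisons use the same 2 adult sections and are not independent. The labels do not tie the 2 sections of an age to litters, and the test measures only the spread between them. In a sum over spots, fewer cells of a type and less RNA per cell cannot be told apart. Without P21 section 1, P21 section 2 or adult section 1 the P21 counts were 199 and 266, 250 and 300, and 306 and 346 genes, while those of aged sections moved by less than 1.5 times. A further test, of the high-score by age term, compared the change in the high-score spots with that in the other spots of the same sections. That term was called positive for 177 (1.15%) and negative for 399 (2.58%) of 15449 genes in P21, and positive for 53 (0.343%) and negative for 276 (1.79%) in aged sections. The positive count in P21 was 50 without P21 section 1, 98 without P21 section 2, 76 without adult section 1, 276 without aged section 1 and 278 without aged section 2. That in aged sections was 34 without P21 section 1, 24 without adult section 1, 102 without adult section 2, 101 without aged section 1 and 165 without aged section 2. The negative count in P21 was 196 without P21 section 1 and 252 without adult section 1, and that in aged sections was 146 without adult section 1.

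Peptides of the arcuate nucleus were far higher in P21 than in adult high-score spots. Agrp, which drives feeding, was at 163 and 165 CPM in P21 and at 0.471 and 0.704 CPM in adult sections, from 2 and 3 UMIs, and at 2.43 and 1.44 CPM in aged sections. Agrp was called higher in P21 (adjusted p = 9.07e-10), and the pooled P21 level was 278 times the adult level, with a 95% exact interval of 119 to 858 that covers counting error only. The rise was larger than in the other spots by a term of 4.68 (adjusted p = 4.61e-05), which rests on the same few adult UMIs. Npy, an orexigenic peptide made by the same arcuate neurons and also in cortex, was at 419 and 377 CPM in P21, 122 and 97.1 CPM in adult and 154 and 110.1 CPM in aged sections. Npy rose by 1.86 on the log2 scale (SE 0.15, adjusted p = 1.87e-05), whereas the other spots gave 0.17, a difference of 1.66 (adjusted p = 2.24e-06). P21 sections thus lay above all others for both genes with no overlap, and both calls were kept with each section left out in turn.

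Pomc, the precursor of melanocortins, was at 112 and 124 CPM in P21, 0.706 and 11.7 CPM in adult and 30.7 and 5.33 CPM in aged sections. Its log2 fold change in P21 of 4.23 (SE 0.62, adjusted p = 0.00106) became 3.32 without adult section 1 and 7.33 without adult section 2. Ghrh, the growth hormone releasing hormone, was at 74.7 and 78.0 CPM (P21), 1.41 and 6.80 CPM (adult) and 14.0 and 7.64 CPM (aged), a rise in P21 of 4.21 (SE 0.35, adjusted p = 1.97e-05). Pomc is also a hormone gene of the pituitary, and 3 of 9 pituitary genes, Cga, Gh and Tbx19, were tested and called higher in P21. They passed the filter through P21 or aged sections, since adult sections held no UMI of Cga or Gh. That all tested genes were called thus follows in part from the filter, and nothing is drawn from this count. Gh had 49 UMIs in P21 section 1 and none in P21 section 2, and its call was lost without P21 section 1 or either adult section. The 9 genes summed to 41.7 and 19.4 CPM in P21, 0.469 and 0.687 CPM in adult and 6.95 and 5.38 CPM in aged high-score spots, with Cga the most abundant and none at 0 in all sections. Tbx19, a transcription factor of the pituitary cells that make Pomc, was at 3.21 and 4.16 CPM in P21, 0.235 and 0 CPM in adult and 1.21 and 0.865 CPM in aged sections, with 1 UMI in the adult sections together. The part of these genes in the Pomc result was not tested. Every P21 value of Pomc and Ghrh was above every adult and aged value. Npw, the neuropeptide W precursor, had 338 and 250 UMIs in P21 and none in the adult sections, so it was at least 72.4-fold higher in P21, against a floor of 3 UMIs per adult section.

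Bsx, a transcription factor of arcuate neurons, was at 14.4 and 21.7 CPM in P21, 0.471 and 0.235 CPM in adult and 3.03 and 7.49 CPM in aged sections, and was called higher in P21 (adjusted p = 0.000106) and in aged sections (adjusted p = 0.00213). The adult levels of Bsx rest on 2 UMIs and 1 UMI, so no fold is given. Nkx2-4 was at 19.8 and 17.96 CPM (P21), 0.706 and 0.938 CPM (adult) and 3.44 and 2.74 CPM (aged) and was called higher in P21 (adjusted p = 1.16e-05), where its pooled level was 23.2 times the adult level of 7 UMIs (95% exact counting interval 11.1 to 58.4). Nkx2-1, which specifies the ventral hypothalamus and was singled out with Otp after its values were seen, was at 42.0 and 39.9 CPM (P21), 7.77 and 12.7 CPM (adult) and 20.6 and 25.8 CPM (aged) and rose in P21 by 2.002 (adjusted p = 9.96e-05). Otp rose by 1.73 (SE 0.25, adjusted p = 0.000873) in P21, and its aged value of 0.32 did not pass. Over 27 hypothalamic transcription factors the P21 median was 0.72, compared with 0.60 in the other spots and 0.0036 over all genes. The term was called positive for 3 and negative for 4 of them. Rax, among the rises, had no UMI in the adult sections and passed the filter through P21. In all, 9 rose and 3 fell in P21, and fewer rose without P21 section 1 or without adult section 1. Lhx6, a factor of GABAergic neurons, was among those that fell, at 7.26 and 9.86 CPM in P21, 23.8 and 19.0 CPM in adult and 36.2 and 33.7 CPM in aged sections, with a term of -1.38 (adjusted p = 0.00113) that was not called without P21 section 1. The patches with the most Lhx6 among the largest 2 of each section made up 6.39% and 11.8% of the high-score spots in P21, 31.5% and 47.9% in adult and 28.0% and 23.2% in aged sections. Between the main P21 patches and the Hcrt patch of adult section 2, in CPM without TMM scaling, Otp was at 87.8 and 101 against 49.8 CPM, Nkx2-1 at 48.4 and 47.0 against 24.9 CPM and Lhx6 at 4.97 and 5.43 against 12.8 CPM, which is given without a test since 1 adult section holds such a patch.

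**Figure D3:**
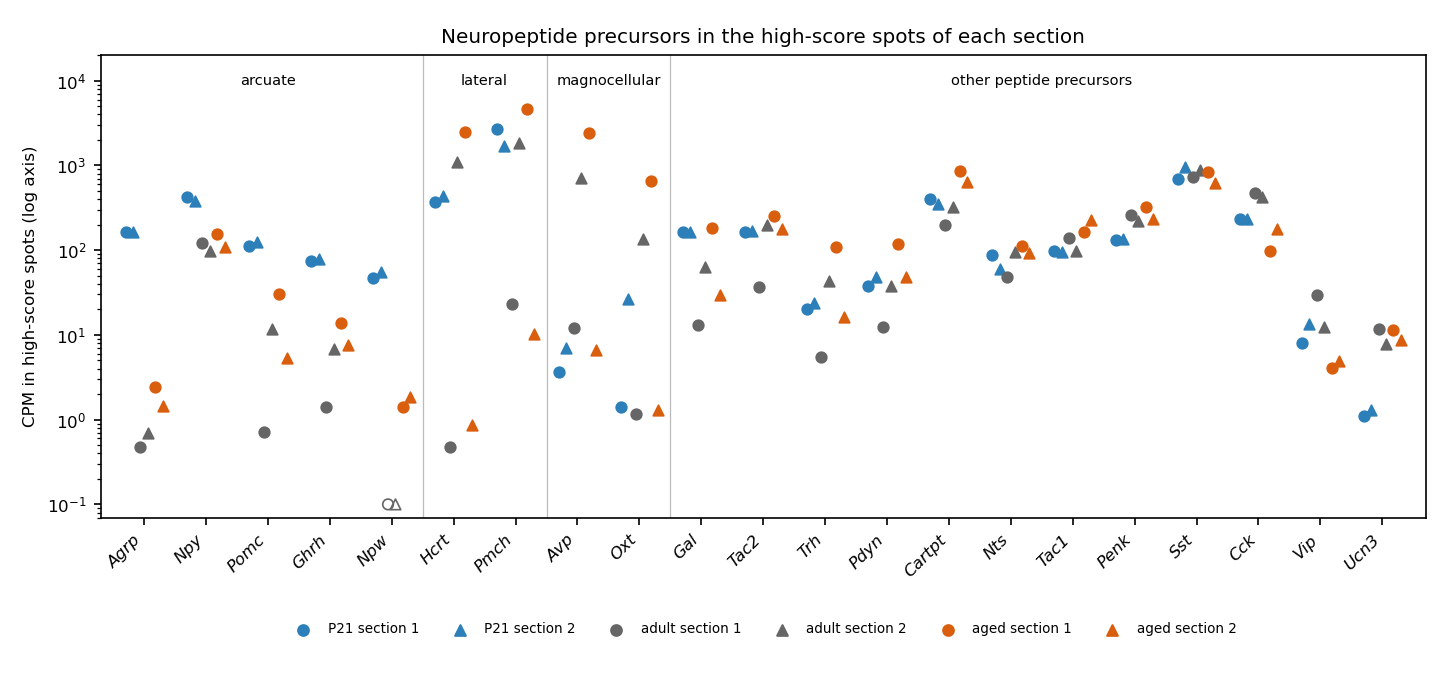
CPM in the high-score spots (log axis) of 21 peptide precursors, with 1 point per section, coloured by age and shaped by section number. Open points at the bottom are adult sections without a UMI. Agrp, Npy, Pomc, Ghrh and Npw lie highest in the P21 sections, and Hcrt, Pmch, Avp and Oxt are near the bottom in adult section 1 and aged section 2.

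Other precursors were lower in P21. Ucn3, urocortin 3, was at 1.12 and 1.31 CPM in P21, 11.8 and 7.74 CPM in adult and 11.5 and 8.79 CPM in aged sections, a log2 change of -3.00 (SE 0.38, adjusted p = 0.000364). Penk, the enkephalin precursor, was at 131 and 136 CPM (P21), 262 and 223 CPM (adult) and 323 and 233 CPM (aged) and changed by -0.86 (adjusted p = 0.00186), a call lost without P21 section 1. Cck, cholecystokinin, was at 232 and 232 CPM (P21), 475 and 419 CPM (adult) and 97.7 and 178 CPM (aged), with changes of -0.95 in P21, a call lost without P21 section 1 or 2, and of -1.69 in aged sections (SE 0.20, adjusted p = 0.000139). The 27 precursors tested had a P21 median of 0.45 beside 0.29 in the other spots, with the term called positive for 4 and negative for 3. Of them 6 rose and 3 fell in P21. Without P21 section 1 the counts were 5 and 1, and without aged section 2 they were 9 and 6. Without adult section 1 and aged section 2 together 8 rose and 7 fell, in a fit where the lone adult section is taken to vary like the P21 pair.

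In aged high-score spots Cartpt and several other precursors were higher. Cartpt, the precursor of an appetite-suppressing peptide on chr13:99898489-99901091, was at 399 and 349 CPM in P21, 199.9 and 325 CPM in adult and 862 and 643 CPM in aged sections. It rose by 1.52 (SE 0.19, adjusted p = 0.000242), more than in the other spots by 0.98 (adjusted p = 0.00151), and its value ran from 1.21 to 1.91 with each section left out. Both aged sections were above the other 4, but the patches did not follow this order. In CPM without TMM scaling Cartpt was at 1192 CPM in the Hcrt patch of aged section 1, at 1846 CPM in the Lhx6 patch and 428 CPM in the Nkx2-1 patch of aged section 2, and at 576 CPM in the Hcrt patch of adult section 2. Adcyap1, the precursor of PACAP, was at 107 and 73.8 CPM (P21), 62.4 and 72.7 CPM (adult) and 106 and 199 CPM (aged), with a change of 1.19 (adjusted p = 0.00432) that was 0.65 without aged section 2. Pdyn, the dynorphin precursor, was at 12.5 and 38.2 CPM in adult and 118 and 48.4 CPM in aged sections, with a change of 1.69 (adjusted p = 0.0119) that was 1.10 and not called without adult section 1, 2.71 without adult section 2 and 0.93 without aged section 1. Vip, vasoactive intestinal peptide, was at 8.10 and 13.4 CPM (P21), 29.7 and 12.4 CPM (adult) and 4.04 and 4.90 CPM (aged) and fell by 2.21 (adjusted p = 0.00169), or by 1.46 without adult section 1.

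For the peptides that split the sections of an age no change within the high-score spots was called. Hcrt gave -0.42 (adjusted p = 0.907) in P21 and 1.203 (adjusted p = 0.651) in aged sections, with standard errors of 1.75 and 1.76. Pmch gave 1.25 and 1.34, Oxt -2.51 and 2.25, and Avp -6.16 and 1.74. The term of Avp in aged sections was called, at 1.93 (adjusted p = 0.0337), but not without P21 section 1 or without aged section 1. With adult section 1 left out, the Hcrt value in P21 was -1.43, and with adult section 2 left out it was 9.68. Sst, somatostatin, did not split in this way, at 698 and 965 CPM (P21), 732 and 879 CPM (adult) and 845 and 614 CPM (aged), and its changes of 0.046 and -0.14 had standard errors of 0.17 and 0.17. Over the list the aged median of 27 precursors was 1.19, compared with 0.51 in the other spots and 0.0055 over all genes. The term was called positive for 2 and negative for 3 of them. In all 8 rose and 2 fell in aged sections, and fewer rose without adult section 1 and more without aged section 2. Of the 27 transcription factors 7 rose and none fell in aged sections, and the term was called for none. Fewer rose without adult section 1 and more without aged section 2. Among the 7, Rax had 3 and 6 aged UMIs and none in the adult sections. It passed the filter through P21, so nothing is drawn from its aged call.

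Of 24 genes that cut, amidate and store peptides 3 were called in P21 and 4 in aged sections, where 8.5% and 13.2% of all genes were called. Pam, which amidates peptides, was at 537 and 606 CPM in P21, 329 and 488 CPM in adult and 825 and 769 CPM in aged sections and rose in aged sections by 0.96 (SE 0.15, adjusted p = 0.000882). Scg2, a granin, rose by 0.66, or 0.33 and not called without adult section 1 and 1.08 without adult section 2, and Chga, another granin, rose in P21 by 0.68, a call lost without P21 section 1 or adult section 1. In all 2 rose and 1 fell in P21, and 3 rose and 1 fell in aged sections, with medians of 0.15 and 0.11. The P21 rises of the list were lost without P21 section 1 or without adult section 1, and fewer genes rose in aged sections without adult section 1.

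Among 45 receptors for peptide and metabolic hormones 6 rose and none fell in P21, and only 2 rose without P21 section 1. Ghsr, the ghrelin receptor, was at 6.56 and 5.70 CPM in P21, 1.18 and 0.704 CPM in adult and 3.03 and 4.18 CPM in aged sections, a P21 level 6.62 times the adult level of 8 UMIs (95% exact counting interval 3.19 to 15.9, adjusted p = 0.00186). Calcr, on chr6:3685680-3764714, was at 70.4 and 88.5 CPM (P21), 9.18 and 14.5 CPM (adult) and 30.7 and 14.4 CPM (aged) and rose in P21 by 2.73 (SE 0.30, adjusted p = 0.000124), with 3.18 in the other spots. Lepr, the leptin receptor, rose by 1.66, a call lost without P21 section 1, P21 section 2 or adult section 2. Mc3r, a melanocortin receptor, rose by 2.09, a call lost without P21 section 1 or either adult section. In aged sections 10 receptors rose and 3 fell, with 5 higher and 2 lower without adult section 1. Ramp3, which modifies calcitonin family receptors, was at 47.1 and 44.3 CPM in P21, 57.0 and 39.4 CPM in adult and 6.07 and 7.64 CPM in aged sections, a fall of 2.79 (SE 0.21, adjusted p = 8.92e-06) beside -1.17 in other spots, a term of -1.65 (adjusted p = 0.00236). Esr1, an estrogen receptor, rose in P21 by 1.24 (adjusted p = 0.00352), was 0.82 without adult section 2 and was not called without P21 section 1. Of 12 steroid and nuclear hormone receptors Esr1 was the 1 that rose in P21, and 2 fell, with a median of -0.30. Nr3c2, the mineralocorticoid receptor, fell by 0.74 (adjusted p = 0.00176), a call kept with each section left out, and Thrb, a thyroid hormone receptor, by 0.88 (adjusted p = 0.00697), a call lost without P21 section 1 or 2.

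More imprinted genes rose than fell at both ages. Of 49 tested, 14 rose and none fell in P21, where 4.31% of all genes rose and 4.19% fell. Their P21 median was 0.36 compared with 0.24 in other spots and 0.0036 over all genes. The P21 term was called positive for 2 and negative for 1 of the 49. In aged sections 11 rose and 1 fell, where 7.52% of all genes rose and 5.64% fell. Their aged median was 0.27 compared with 0.025 in other spots, and the aged term was called positive for 1 and negative for none. The gene that fell, Cdkn1c, a cell cycle inhibitor, changed by -0.76 (adjusted p = 0.0489), a call kept only without aged section 2 among the 6 fits that left out a section. The score genes Magel2 and Peg10 are imprinted, so this list shares its loci with the rule that chose the spots. The P21 count was 8 without P21 section 1, the aged count was 8 without adult section 1, and without adult section 1 and aged section 2 together 13 and 15 rose.

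Ndn, the neighbour of Magel2, lies on chr7:62346569-62350262, 26.7 kb away, and encodes necdin, a growth suppressor of neurons. It was at 725 and 739 CPM in P21, 419 and 498 CPM in adult and 1586 and 1277 CPM in aged sections. Both aged sections lay far above the other 4, a change of 1.64 (SE 0.12, adjusted p = 8.62e-06), compared with 0.84 in the other spots, and the term of 0.72 passed (adjusted p = 0.000658). Mkrn3, 36.0 kb from Magel2 on the other side and a known brake on puberty, was at 5.45 and 5.70 CPM in P21, 2.35 and 2.11 CPM in adult and 1.21 and 0.721 CPM in aged sections. The Mkrn3 rise in P21 of 1.31 was lost when a P21 or an adult section was left out, and the aged value of -1.24 did not pass (adjusted p = 0.0828). Ube3a, in the same domain on chr7:59228750-59311536, gave 0.068 and 0.31 and was not called. Snrpn, a splicing gene 2237 kb from Magel2, was at 9.78 and 7.45 CPM in P21, 1.65 and 2.58 CPM in adult and 6.87 and 6.63 CPM in aged sections and was called higher at both ages, by 2.03 in P21 (adjusted p = 0.00223, lost without P21 section 1) and 1.66 in aged sections (adjusted p = 0.00497). Mkrn3 and Ube3a were not called in aged sections.

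In the cluster around Peg3, Zim1 at chr7:6671269-6696450 was at 33.2 and 27.6 CPM in P21, 12.2 and 24.4 CPM in adult and 68.1 and 52.0 CPM in aged sections and rose in aged sections by 1.70 (SE 0.24, adjusted p = 0.000413; 2.28 without adult section 2). Peg3, a zinc finger gene 7.44 kb away, gave 0.64 in P21, a call lost without P21 section 1 or adult section 1, and 0.31 in aged sections (adjusted p = 0.0762). On chr6, around the score gene Peg10, Asb4 was at 139 and 169 CPM in P21, 4.71 and 23.5 CPM in adult and 38.4 and 13.5 CPM in aged sections. Asb4, part of a ubiquitin ligase and known from the arcuate nucleus, rose in P21 by 3.44 (SE 0.44, adjusted p = 0.000413), or 5.02 without adult section 2. Sgce, only 0.099 kb from Peg10, stayed between 55.2 and 75.4 CPM in the 6 sections, with changes of 0.066 and -0.24. On chr12, Dlk1 was at 282 and 326 CPM (P21), 70.4 and 161 CPM (adult) and 279 and 171 CPM (aged) and Rtl1 at 16.9 and 17.7 CPM (P21), 1.65 and 5.86 CPM (adult) and 17.8 and 8.504 CPM (aged), each lowest in adult section 1. Both were called higher in aged and in P21 sections, but the P21 calls were lost without P21 section 1 or 2. The aged call of Rtl1 was lost without adult section 1, and that of Dlk1 without adult section 1, aged section 1 or either P21 section. Begain and Dio3 of the same chromosome were not called.

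Outside these clusters Nap1l5, a nucleosome assembly gene on chr6:58905233-58907076, was at 2838 and 2753 CPM in P21, 1365 and 1630.4 CPM in adult and 1642 and 1459 CPM in aged sections. The P21 rise was 0.90 (SE 0.099, adjusted p = 0.000144), compared with 0.45 in other spots, while the aged value was 0.050. Nnat, neuronatin, was at 1501 and 1739.8 CPM (P21), 650.2 and 948 CPM (adult) and 1013 and 794 CPM (aged) and rose in P21 by 1.02 (adjusted p = 0.00163). Grb10, an adaptor that restrains insulin signalling, was at 219 and 207 CPM (P21), 110.0 and 139 CPM (adult) and 226 and 199 CPM (aged) and rose at both ages, by 0.77 (adjusted p = 0.00126) and 0.77 (adjusted p = 0.000711). Its P21 and aged sections all lay above both adult sections. Impact, a translation regulator, rose in aged sections by 0.84 (SE 0.10, adjusted p = 0.000191). Plagl1, a zinc finger gene, rose in P21 by 1.11 with a positive term of 0.78 (adjusted p = 0.00452).

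**Figure D4:**
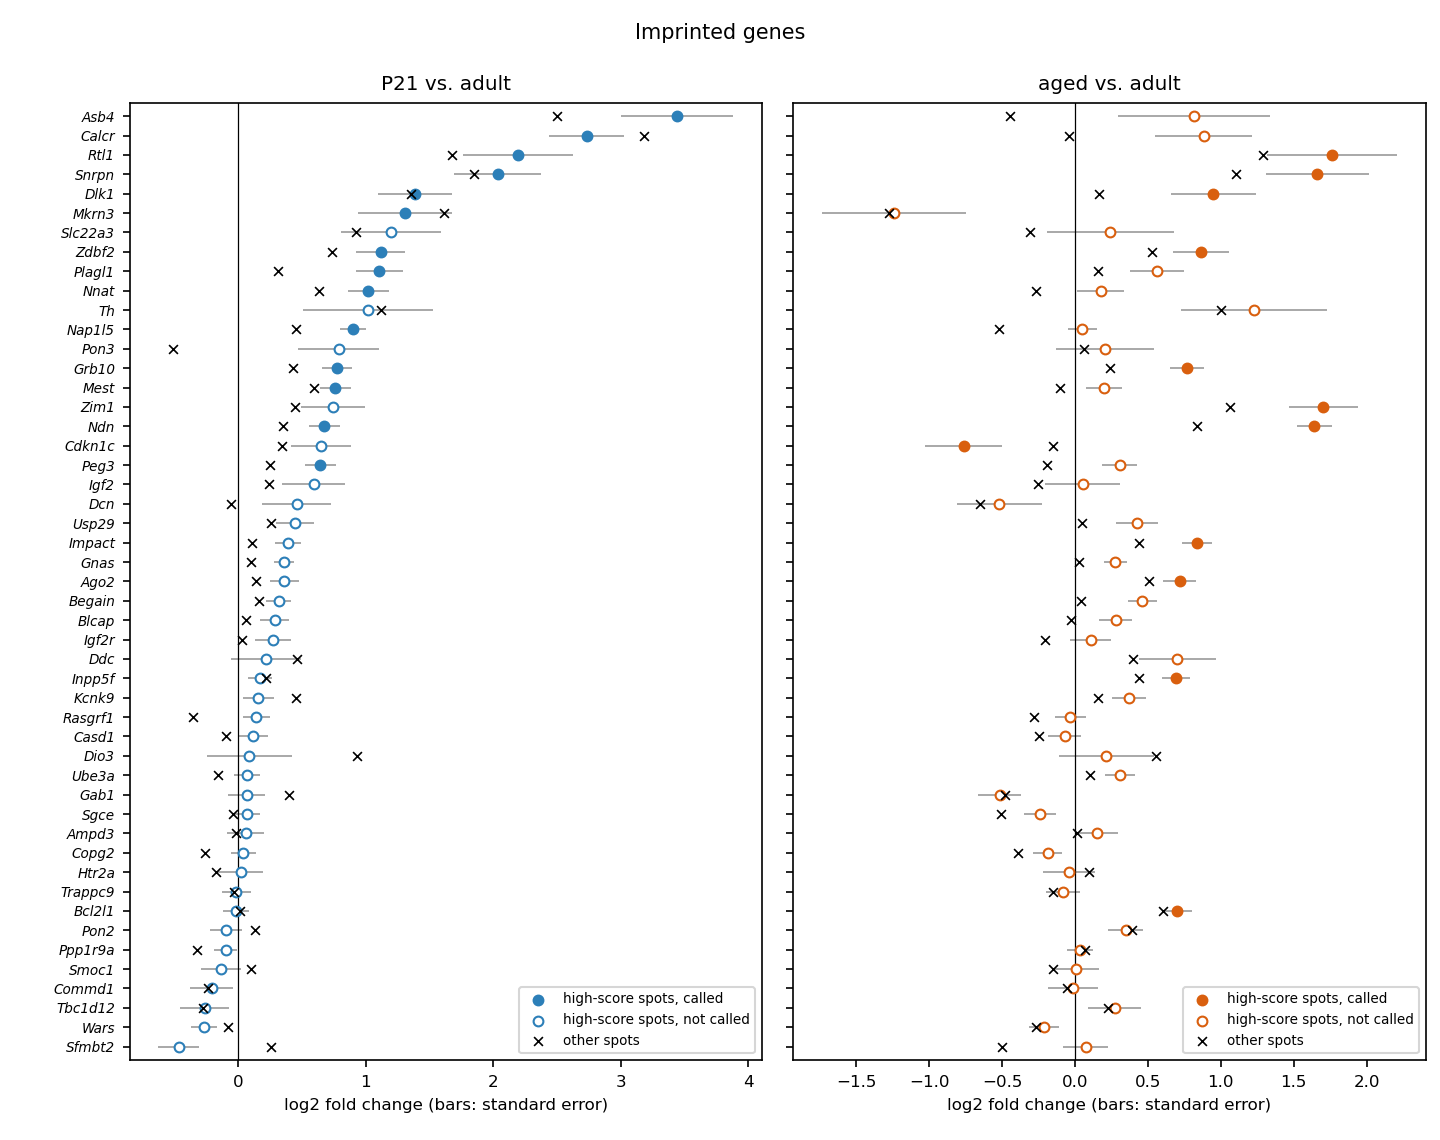
Log2 fold change of 49 imprinted genes in the high-score spots in P21 vs. adult (left) and aged vs. adult (right), with the standard error as a bar, filled points for called genes and crosses for the other spots. Called P21 genes all lie to the right of 0, Ndn, Zim1 and Rtl1 are among the highest in aged vs. adult, and Cdkn1c, whose call was lost in 5 of 6 fits with a section left out, is the 1 called gene to the left.

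Myelin genes did not follow the other spots of the P21 sections. The 17 genes of mature oligodendrocytes and myelin summed to 14341, 14461, 14708, 13288, 7920.2 and 8495 CPM in the high-score spots of the 6 sections, in the order P21, adult and aged, and to 29138, 30907, 15256, 14723, 10786 and 10339.6 CPM in the other spots. In the other spots both P21 sections thus lay far above both adult sections, while in the high-score spots the P21 and adult sections overlapped. Mbp, which encodes myelin basic protein, was at 4652 and 4749 CPM in P21, 5059 and 4729 CPM in adult and 2444 and 2867 CPM in aged high-score spots. Its P21 change of -0.058 (adjusted p = 0.691) compared with 0.92 in the other spots, a term of -0.99 (adjusted p = 3.26e-05). Ugt8a, which makes galactolipids of myelin, gave 0.52 in the high-score spots and 1.65 in the other spots.

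The term was called negative for 17 of 17 myelin genes, between -1.14 and -0.66, where 2.58% of all genes were called negative. This count was 16 or 17 with each section left out, and 17 without adult section 1 and aged section 2. Where only high-score spots with at least 3 high-score neighbours were used, the count was 14. The median P21 change was 0.079 in the high-score spots and 1.04 in the other spots. Within the high-score spots 1 gene rose, the tight junction gene Cldn11, singled out after its values were seen, by 0.74 (adjusted p = 0.000498), and 4 fell, among them Trf, transferrin, by 1.33 (adjusted p = 1.16e-05) and Apod, apolipoprotein D, by 1.37 (adjusted p = 9.96e-05). Of 15 genes of newly formed oligodendrocytes and their precursors 6 rose and 1 fell in P21. Gpr17, a receptor of committed precursors, was at 90.4 and 112 CPM in P21, 34.6 and 28.4 CPM in adult and 21.0 and 22.8 CPM in aged sections, a P21 rise of 1.67 (SE 0.14, adjusted p = 2.16e-05). Enpp6, a marker of newly forming oligodendrocytes, rose by 1.0 in P21 and fell by 1.46 in aged sections.

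In aged high-score spots 14 of 17 myelin genes fell and none rose, with a median of -0.88 compared with -0.72 in other spots. Opalin, a membrane protein of oligodendrocytes, was at 116 and 101 CPM in P21, 156 and 137 CPM in adult and 20.2 and 21.0 CPM in aged sections, a fall of 2.83 (SE 0.13, adjusted p = 1.29e-07). The other spots fell by 2.92. Mag, the myelin-associated glycoprotein, fell by 1.28 (adjusted p = 4.89e-05). The count was 13 to 15 with each section left out, but 8 where only high-score spots with at least 3 high-score neighbours were used and 10 where the top 5% of spots were used.

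Immediate early genes, which neurons switch on within minutes of activity, split the spots of the aged sections. Fos was at 7.82 and 10.1 CPM in P21, 10.6 and 5.39 CPM in adult and 28.9 and 30.8 CPM in aged high-score spots, a rise of 1.90 (SE 0.25, adjusted p = 0.000278), beside 1.9995 in the other spots. Egr1 was at 24.4 and 38.8 CPM (P21), 78.9 and 58.6 CPM (adult) and 266 and 156 CPM (aged) and rose by 1.61 (adjusted p = 0.000571), less than the 2.44 of the other spots (term -0.95, adjusted p = 0.00879). Arc, a gene of synaptic plasticity, was at 23.9 and 23.002 CPM (P21), 67.1 and 46.2 CPM (adult) and 62.5 and 30.8 CPM (aged) and gave -0.31 (adjusted p = 0.412), while the other spots gave 1.63, a term of -2.06 (adjusted p = 1.64e-05). Over the list 4 of 18 rose and 1 fell in the high-score spots, with a median of -0.021 compared with 0.88 in the other spots. The term was called negative for 9 of 18 and positive for none, and the negative count was 6 without adult section 1. In P21 5 of 18 fell and none rose, a result that was lost without P21 section 1 and much weaker without adult section 1.

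**Figure D5:**
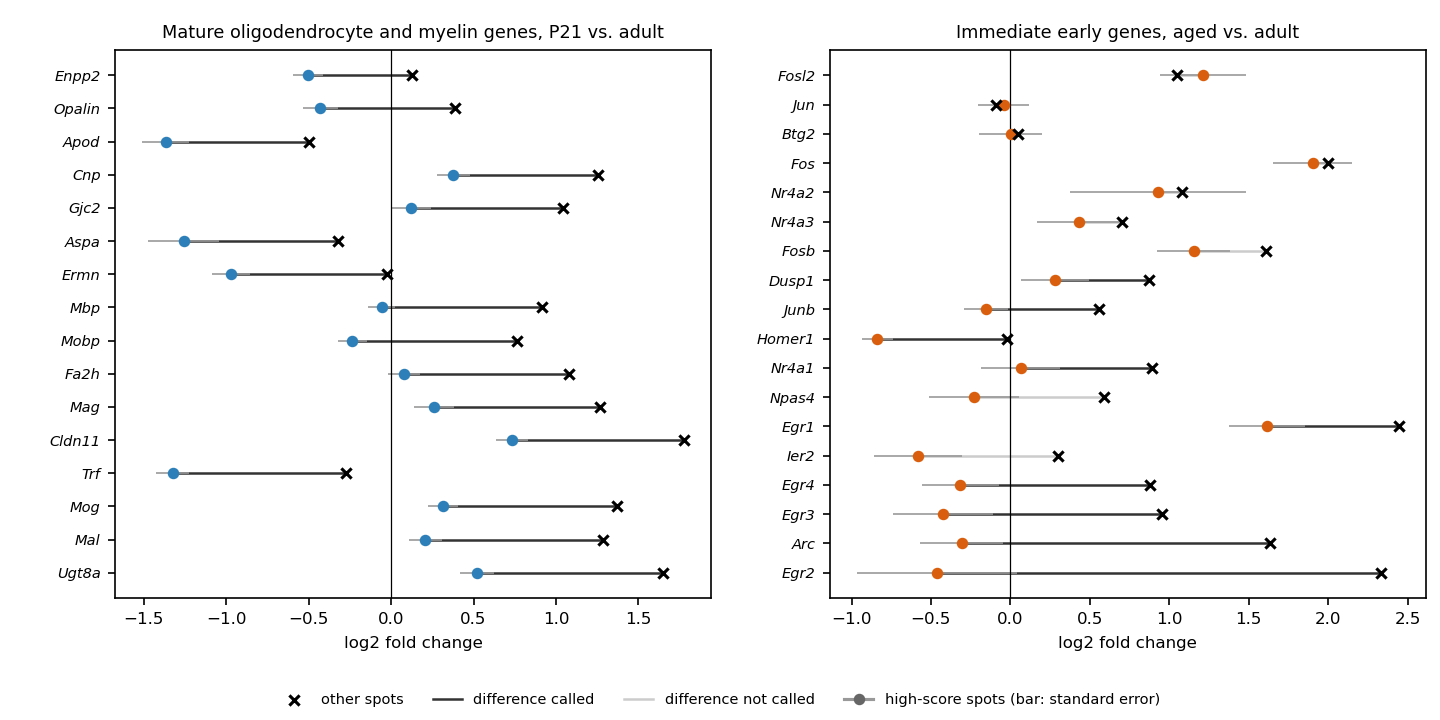
Log2 fold changes in the high-score spots (circles, with standard errors) and in the other spots (crosses) of 16 of the 17 myelin genes in P21 vs. adult and of 18 immediate early genes in aged vs. adult, joined by a dark line where the difference was called and by a light one where it was not. All 16 myelin genes plotted have the circle to the left of the cross with a dark line, as have 9 of the immediate early genes.

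Genes of the ventricle wall were higher in P21. Of 18 genes of ependymal cells and tanycytes, the cells that line the third ventricle, 11 rose and none fell, and 9 to 12 rose with each section left out. The term was positive for 7. Over all genes 4.31% rose in P21 and 1.15% had a positive term. Rax held no UMI in the adult sections, and Tmem212 and Dynlrb2 held 6 each. Rax and Tmem212 passed the filter through P21, so that none of the list fell follows in part from the filter. In aged sections 2 of the 18 rose and 2 fell, where 7.52% and 5.64% of all genes did. These aged rises were lost without adult section 1 or without aged section 2. Tmem212, a gene of ciliated ependymal cells, was at 15.2 and 17.7 CPM in P21, 0.706 and 0.704 CPM in adult and 1.62 and 2.88 CPM in aged sections, a pooled P21 level 22.98 times the adult level of 6 UMIs (95% exact counting interval 10.4 to 63.4, adjusted p = 2.83e-05). Rax, a tanycyte transcription factor, had no UMI in the adult sections and was at least 14.3-fold higher in P21. It is 1 of the 2 aged rises, but its 3 and 6 aged UMIs gave only 1.04 times a floor of 3 UMIs per adult section. Nothing is drawn from that aged call. The list summed to 386, 429.5, 221, 196, 156 and 177 CPM in the 6 sections, in the order P21, adult and aged, and whether the P21 patches held more of the ventricle wall was not tested.

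Some blood, meningeal, pituitary and immature cell genes were also called higher in P21. Of 11 genes of meninges and fibroblasts 4 rose and none fell in P21, and fewer rose without P21 section 2. Among them were Col3a1, which rose by 2.06, and Col1a1, by 1.58. All 4 erythrocyte genes tested rose in P21, of which Hbb-bs was the most abundant, at 1233 and 1033 CPM in P21, 234 and 84.2 CPM in adult and 70.8 and 118 CPM in aged sections, a change of 2.83 (adjusted p = 0.000357) beside 2.95 in the other spots, and 3.74 without adult section 1. Cga, the shared subunit of pituitary glycoprotein hormones, had 190 and 57 UMIs in the P21 sections and none in the adult sections, at least 27.7-fold more. Of 15 genes of immature neurons and growth 5 rose in P21, and 1 rose without P21 section 1. Marcksl1 was at 293 and 255 CPM in P21, 122 and 133 CPM in adult and 122 and 158 CPM in aged sections, a rise of 1.11 (SE 0.13, adjusted p = 0.000179) that was smaller than the 1.85 of the other spots (term -0.77, adjusted p = 0.000116).

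The largest called falls in P21 among genes with a mean of at least 20 CPM included genes of oligodendrocytes and of nodes of Ranvier. Il33, a nuclear cytokine of oligodendrocytes and astrocytes on chr19:29925114-29960718, was at 16.2 and 19.3 CPM in P21, 119 and 129.9 CPM in adult and 88.6 and 98.6 CPM in aged sections, a fall of 2.83 (SE 0.13, adjusted p = 1.47e-07), with a fall of 3.18 in the other spots. Hapln2, a link protein at nodes of Ranvier, was at 7.54 and 10.1 CPM (P21), 45.7 and 42.7 CPM (adult) and 56.6 and 73.9 CPM (aged), a fall of 2.36 (adjusted p = 1.92e-05) with a term of -1.52. Car2, carbonic anhydrase of oligodendrocytes, was at 133 and 139 CPM (P21), 545 and 537 CPM (adult) and 292 and 313 CPM (aged), a fall of 1.99 (SE 0.098). The 2 P21 sections were below the 4 others for all 3 genes. Meis2, a homeobox factor of subpallial neurons, fell by 1.85 (adjusted p = 8.01e-05), with -0.44 in other spots, and Serpina3n, a protease inhibitor of reactive astrocytes, rose by 1.66 (adjusted p = 0.000311), with -0.35 in other spots.

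Several glucocorticoid and heat shock genes rose in aged high-score spots. Cdkn1a, the p21 cell cycle inhibitor and a glucocorticoid target on chr17:29090976-29100727, was at 26.3 and 28.0 CPM in P21, 8.71 and 6.33 CPM in adult and 38.4 and 43.2 CPM in aged sections. Its rise was 2.44 (SE 0.19, adjusted p = 1.02e-05) in aged and 1.84 (adjusted p = 0.000106) in P21 sections, so that adult sections were lowest. Sgk1, a kinase induced by glucocorticoids, was at 25.6 and 28.3 CPM (P21), 49.7 and 37.5 CPM (adult) and 102 and 114 CPM (aged) and rose by 1.31 (adjusted p = 5.75e-05). In all 5 of 10 glucocorticoid and stress genes rose and none fell, a count of 5 under each left-out section. Hspa5, a chaperone of the endoplasmic reticulum, rose by 0.86 (adjusted p = 0.00126), or 0.58 without aged section 1, where it was no longer called. Hspa1b, an inducible heat shock gene, was at 87.3 and 19.9 CPM in aged sections, and its change of 2.04 was 0.64 without aged section 1 and was not called without that section or without an adult section. The heat shock count of 5 of 8 was 2 without adult section 1.

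C4b, a complement factor on chr17:34728380-34743882, was at 26.3 and 16.9 CPM in P21, 41.2 and 35.4 CPM in adult and 198 and 118 CPM in aged sections, a rise of 2.03 (SE 0.23, adjusted p = 9.99e-05). In the other spots it rose by 2.91, and the term of -0.98 passed (adjusted p = 0.00669). H2-D1, a class I histocompatibility gene, was at 25.98 and 30.2 CPM (P21), 28.3 and 26.3 CPM (adult) and 58.2 and 67.6 CPM (aged) and rose by 1.21 (SE 0.14, adjusted p = 0.000128), next to 1.15 in the other spots. The aged sections lay above the 4 others for both genes. The list counts that follow stand beside 7.52% of all genes that rose and 5.64% that fell in aged sections. Of 10 complement genes 2 rose and none fell, C4b and C5ar1, and the C5ar1 call was lost whichever section was left out. Of 12 interferon-induced genes 3 rose, Ifit3, Ifi27 and Lgals3bp, and 1 fell, Xaf1. The Ifi27 and Lgals3bp rises of 0.79 and 1.16 were kept with each section left out, while the Ifit3 and Xaf1 calls were each lost in 4 of 6 such fits. Of 9 class I genes 4 rose and none fell, a count of 4 under each left-out section, and 3 without adult section 1 and aged section 2. Of 14 genes of disease-associated microglia 6 rose and 1 fell. The fall, of Lpl by 0.85, was lost without adult section 1 or without aged section 2. Fewer of these genes rose without adult section 2, and 3 rose with DESeq2. Lgals3, galectin-3, was at 5.17 and 7.67 CPM in P21, 2.35 and 1.17 CPM in adult and 8.90 and 8.07 CPM in aged sections. It rose in aged sections by 2.25 (adjusted p = 0.0015). Homeostatic microglial genes fell in 3 of 12 cases and rose in none, and fewer fell without adult section 1 or without aged section 2. Serpina3n rose by 2.16 (SE 0.20, adjusted p = 3.32e-05), at 34.9 and 34.2 CPM (P21), 9.42 and 12.4 CPM (adult) and 56.8 and 41.7 CPM (aged), while Gfap, the astrocyte filament, gave -0.085 (adjusted p = 0.768) compared with 0.86 in other spots, a term of -1.04 (adjusted p = 0.00425).

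Of 8 GABAergic genes none was called in P21 and 1 rose in aged sections, or 5 without aged section 2. Of 12 pan-neuronal genes 1 fell in P21 and 1 rose and 1 fell in aged sections. Gad1, which makes GABA, was at 51.3 and 39.9 CPM in P21, 53.2 and 63.6 CPM in adult and 134 and 93.5 CPM in aged sections, a rise of 0.95 (SE 0.17, adjusted p = 0.00181) beside 0.93 in the other spots, with a term of -0.067 (adjusted p = 0.879). Syt1, a synaptic vesicle calcium sensor, rose by 0.86 in aged sections (adjusted p = 0.000492), and Snap25, of the same release machinery, fell by 0.67 in P21 (adjusted p = 0.00125). Hdc, which makes histamine in the posterior hypothalamus, was at 54.2 and 59.1 CPM in P21, 2.59 and 0.704 CPM in adult and 7.89 and 101 CPM in aged sections. The aged rise of 5.09 (SE 1.09) rested largely on aged section 2 and was 2.25 without it, and the P21 rise of 5.08 was lost when a P21 or an adult section was left out. Slc18a2, the vesicular monoamine transporter, split in the same way, at 17.8 and 101 CPM in aged sections, with a change of 2.63, or 0.85 without aged section 2, and no call without adult section 1.

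Among the largest falls in aged sections were those of genes known from cortex and choroid plexus. Slc17a7, at chr7:45163949-45176142, was at 413 and 433 CPM in P21, 900.0 and 769.9 CPM in adult and 65.1 and 79.8 CPM in aged high-score spots, a fall of 3.52 (SE 0.13, adjusted p = 3.04e-08). The other spots fell by 0.34, and the term was -3.24 (adjusted p = 1.99e-08). Of 11 genes of cortex and amygdala 7 fell and 1 rose in aged sections, and 5 fell in P21, or 3 without P21 section 1. This list summed to 819, 801, 1434, 1195, 491 and 482 CPM in the high-score spots of the 6 sections, with Slc17a7 the most abundant and no gene at 0 in all sections, and to 2773, 2594, 2841, 2971, 2645 and 2543 CPM in the other spots. Of 12 thalamic genes 7 fell in aged sections as well and 1 rose, Slc17a6, a glutamate transporter gene also known from the hypothalamus, whose call was lost without aged section 2. Of 6 choroid plexus genes 3 fell, Ttr, Ecrg4 and Enpp2, and 1 rose, the chloride channel gene Clic6, by 1.34 (adjusted p = 0.0026), with the same counts under each left-out section. Ttr, the transthyretin gene of the choroid plexus, was at 387 and 307 CPM (P21), 611 and 291 CPM (adult) and 106 and 36.9 CPM (aged), a fall of 2.68 (term -2.70). Of 11 genes of meninges and fibroblasts 6 fell in aged sections, and none fell without adult section 1. Of all genes lower in aged high-score spots 63.8% were lower in high-score than in other spots of both adult sections, compared with 29.6% of all genes tested, and the part of cortical, thalamic or choroid transcripts in the other results was not tested.

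Cntnap2, a neurexin family gene of axons on chr6:45059357-47304213, was at 33.2 and 40.1 CPM in P21, 32.0 and 40.3 CPM in adult and 1.01 and 1.15 CPM in aged high-score spots, the largest fall of the comparison among genes with a mean of at least 20 CPM, 5.02 (SE 0.27, adjusted p = 5.56e-07). It fell by 5.52 in the other spots, and the term of 0.42 did not pass (adjusted p = 0.709). Zfp60, a zinc finger gene, was at 15.5 and 14.9 CPM (P21), 8.95 and 11.7 CPM (adult) and 42.1 and 40.2 CPM (aged) and rose by 1.99 (SE 0.17), with 1.78 in the other spots. Nsun7, an RNA methyltransferase homologue, was at 15.1 and 14.7 CPM (P21), 16.7 and 15.2 CPM (adult) and 52.4 and 51.5 CPM (aged) and rose by 1.70 (adjusted p = 2.03e-05). For these 3 genes the 2 sections of each age lay close together and the aged pair lay apart. The slide version and, by the paper's account, the probe design changed with that pair.

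The remaining genes among the 10 largest rises or falls are given here. In P21 Ppp1r17, a phosphatase inhibitor gene, was at 57.4 and 58.5 CPM compared with 4.47 and 7.27 CPM in adult sections, a rise of 3.30 (adjusted p = 3.39e-05), and Pgr15l at 74.4 and 84.1 compared with 3.06 and 15.5 CPM, a rise of 3.09 (adjusted p = 0.00027). Anln, the actin-binding protein anillin, was at 10.6 and 8.11 compared with 45.9 and 42.0 CPM, a fall of 2.20 (adjusted p = 1.19e-05). Pls1, an actin-bundling plastin, fell by 2.11, Tnfaip6, a hyaluronan-binding protein, by 1.92 and Evi2a by 1.75. These 6 calls were kept with each section left out, whereas that of Scn4b, a sodium channel subunit that fell by 1.60, was lost without either P21 section or adult section 1. In aged sections Myoc, myocilin, was at 6.27 and 5.19 compared with 66.6 and 29.8 CPM in adult sections, a fall of 3.08 (adjusted p = 0.000174). Gabrd, a GABA receptor subunit, was at 8.90 and 7.49 compared with 57.0 and 35.4 CPM, a fall of 2.51 (adjusted p = 4.47e-05). Both calls were kept with each section left out. Slc30a3 fell by 2.92, Rtn4rl2 by 2.79 and Ccn3 by 2.49 in aged sections, calls kept in all 19 alternatives. In P21 Slc18a2 rose by 2.71, a call lost in 4 of 16 alternatives, and Lhx9 fell by 1.64, a call lost in 5 of 17.

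Counts of further lists are given here, next to the 8.5% of all genes called in P21 and 13.2% in aged sections. Not every list is counted at both ages in this report. Of 8 striatal genes 1 rose and 3 fell in P21 and 3 fell in aged sections, and of 8 hippocampal genes 3 fell in P21 and 1 rose and 2 fell in aged sections. Of 12 endothelial and mural genes 1 rose in P21 and 2 rose and 4 fell in aged sections, and of 13 genes of the extracellular matrix 1 rose and 2 fell in P21 and 3 fell in aged sections. Of 12 astrocyte genes 2 rose in P21, and 1 rose and 1 fell in aged sections. No gene of the circadian clock or of cholesterol synthesis was called in P21. In aged sections 1 of 20 clock genes rose and 2 fell, and 1 of 17 cholesterol genes rose. The P21 term was called negative for 6 of the 17 cholesterol genes, where 2.58% of all genes were. Their median P21 change was 0.14 compared with 0.66 in other spots, and with the top 20% of spots 6 of them rose. With a section left out these counts moved by at most 3 genes. Without adult section 1 the aged clock and astrocyte rises were lost. Without aged section 2 the aged hippocampal rise was lost and fewer extracellular matrix genes fell. Without P21 section 1, 1 striatal gene fell and no astrocyte gene rose in P21, and without adult section 1 no striatal and 1 extracellular matrix gene fell in aged sections, while 2 endothelial and mural genes fell without aged section 1. Neurod6, a transcription factor of cortical and hippocampal neurons, fell by 2.60 in aged sections (adjusted p = 9.41e-06), and Adora2a, an adenosine receptor of striatal neurons, by 1.79 (adjusted p = 0.00382), a call lost without adult section 1. Cldn5, a tight junction gene of brain endothelium, fell by 1.21 (adjusted p = 4.55e-05), whereas Mfsd2a, a lipid transporter of the same cells, rose by 1.43 (adjusted p = 0.000202). Aqp4, the water channel of astrocytes, fell by 1.04 (adjusted p = 0.000146). Of 17 further hypothalamic markers 9 rose in P21 and 5 in aged sections, and none fell. Of 10 reactive astrocyte genes 2 rose and 1 fell in P21, and 4 rose and none fell in aged sections. Of 5 monoamine neuron genes 2 rose at each age and none fell. Of 5 glutamatergic genes 1 rose and 1 fell at each age. The hypothalamic marker and monoamine counts were lower without adult section 1.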

How the data were processed

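The authors sequenced Visium libraries of FFPE sections and deposited, per section, a matrix of UMI counts per gene and spot made with Space Ranger against mm10. The file headers name Space Ranger 2.0.0 for P21 and adult and 3.1.1 for aged sections, and the submitters' processing notes list 2.1.0. Spots with under 500 UMIs were left out, between 1 and 4 per section, and the top 10% by score were summed per section. The members and gene lists were chosen with earlier results of these data known. The 6 sums were compared with edgeR 4.0.16 (quasi-likelihood test, TMM, age as the only factor, genes kept by filterByExpr, R 4.3.3). A second fit over 12 sums, with section as a block, gave the high-score by age term. The call needed a fold change over 1.5 and a Benjamini-Hochberg adjusted p below 0.05. Sections were grouped by the labels. Barcodes mark array positions, so 2612 to 2997 were shared between v1 sections, 3364 between aged sections and 0 between the slide versions. Same-numbered sections did not deviate together (r = -0.0077 for P21 and adult, -0.34 for adult and aged), so numbers were not paired. The genes named were drawn, per comparison, from called genes among the 10 largest rises and 10 largest falls with a mean of at least 20 CPM, peptide precursors and imprinted genes, up to 4 called genes and the most abundant gene of each other list, the 5 largest terms in each direction, and the 20 largest ratios to other spots. Member to other ratios used CPM with a pseudocount of 1. Gene positions are from GENCODE vM21. Alternatives were DESeq2 1.42.0, plain CPM, other filters, the top 5% and 20%, high-score spots with at least 3 high-score neighbours, thinned UMIs, a replicate block and each section left out. Precision is limited by 2 sections per age, and counting error adds to it for genes of few UMIs. Not every gene under this rule is named, and some genes are not reported here.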

Additional observations from a re-analysis of the deposited data

Results flagged for a closer look

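The change with age differed between the high-score spots and the other spots of the same sections, by the test of the difference itself, for 20 of the most different genes with a mean of at least 20 CPM. Differences are given on the log2 scale as the change in the high-score spots minus that in the other spots, and no cause was weighed. In aged vs. adult the difference was -3.24 for Slc17a7, -2.88 for Rtn4rl2, -2.70 for Ttr, -2.53 for the synaptic zinc transporter Slc30a3 and -2.28 for the secreted protein Ccn3. It was 3.29 for Hdc, 1.93 for Avp, 1.06 for Arhgap36, 0.98 for Cartpt and 0.97 for the transcription factor Tead1. The Avp difference became -1.19 when aged section 1 was left out and was not called without that section or P21 section 1. The Hdc and Tead1 differences were not called without adult section 1, and the Hdc rise itself rested largely on aged section 2. In P21 vs. adult the difference was 4.68 for Agrp, 2.92 for Hdc, 2.07 for Cited1, 1.99 for Serpina3n and 1.66 for Npy. It was -2.22 for Lhx9, -1.98 for the calcium-binding protein Calb2, -1.52 for Hapln2, -1.42 for Meis2 and -1.38 for Lhx6. Lhx9 was itself not called in P21 when P21 section 1, P21 section 2 or adult section 2 was left out. The Hdc rise in P21 was lost when any P21 or adult section was left out. The Hdc difference in P21 was not called without P21 section 1 or adult section 1, nor that of Lhx6 without P21 section 1.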

How the results depend on the processing

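Leaving out each section in turn gave 199 to 656 genes higher and 266 to 652 lower in P21, 750 to 1070 higher and 575 to 848 lower in aged sections, 50 to 278 positive and 196 to 478 negative terms in P21, and 24 to 165 positive and 146 to 368 negative terms in aged sections. DESeq2 called 325 genes higher in P21 and 656 in aged sections, and the study's detection criteria left 315 higher in P21. The top 20% of spots gave 239 negative terms in P21 and 124 positive terms in aged sections, and 74.4% of adjacent spots were then members. The top 5% gave 165 negative terms in aged sections and 50.3% of adjacent spots. High-score spots with at least 3 high-score neighbours gave 34 positive and 182 negative terms in aged sections, and leaving out adult section 1 and aged section 2, an alternative chosen after seeing the data, gave 110 positive. With each section left out the aged values ran from -5.77 to 6.64 for Avp, -9.26 to 11.3 for Hcrt, -5.70 to 8.09 for Oxt and -6.49 to 6.65 for Pmch, and the Avp term from -1.19 to 3.32, each lowest without aged section 1 and highest without adult section 2. The P21 value of Gh ran from 0 without P21 section 1 to 8.24, and that of Nts was -0.77 with the top 5%. The cause was not tested. Of 6384 gene values under 19 settings 5644 kept their side of the threshold, 582 lost a call, 151 gained one and 7 reversed. Direction was compared only where a fit called the gene, so the 5644 include changes of sign between values that were not called. Counted per gene and comparison, 121 of 241 calls of named genes were kept throughout. With the replicate number as a block 517 genes were higher and 531 lower in P21, and 947 and 717 in aged sections. Over the 4 adult and aged sections, pairing by number gave 775 and 588 genes and crossed pairing, chosen after seeing the data, 1147 and 814.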
